A study of Mus musculus with 14 samples.

Results

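The cytosolic ribosomal protein genes described here are the protein-coding rows whose symbol is Rpl or Rps with a number, together with Rplp0, Rplp1, Rplp2 and Rpsa. The symbols alone chose them, and 82 of the 55487 rows of the deposited table matched, 51 for the large and 31 for the small ribosomal subunit. They lie on 19 chromosomes, and 4 are X-linked. RNA came from cells sorted by flow cytometry out of mouse colon. The tested macrophages (cre_LP, 3 libraries) and epithelial cells (cre_EC, 4 libraries) came from animals of genotype Tsc2fl/fl Lyz2cre/+, and their counterparts (wt_LP, 3 libraries; wt_EC, 4 libraries) from Tsc2fl/fl Lyz2+/+ animals. All 4 groups therefore carried the floxed Tsc2 alleles, no group carried the recombinase without them, and the labels give no ages. Lyz2 drives the recombinase in myeloid cells, so the macrophages (Cd45+ Cd11b+ Cd64+) are the targeted cells and the epithelium (Cd45- EpCAM+ CD44+) is not. The cre_LP libraries came from 3 males, against 2 females and 1 male for wt_LP. The cre_EC libraries came from 3 males and 1 female, against 2 males and 2 females for wt_EC.

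Ribosomal proteins coat and shape the ribosomal RNA of the particle that makes all other proteins. The large subunit joins amino acids and holds the tunnel through which the new chain leaves. The small subunit reads the messenger RNA. Their messenger RNAs begin with a cytosine followed by a run of pyrimidines, the terminal oligopyrimidine tract, through which the kinase complex mTORC1 controls how well they are translated. Tsc2 encodes tuberin, part of the complex that restrains mTORC1. The comparisons ask whether the levels of these messenger RNAs, as distinct from their translation, differed where Tsc2 was to be deleted and between the 2 cell types.

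The start of the transcript carries that control, so the 30 bases around the annotated start are shown for 4 members with a tract and 4 described below that differed between epithelial groups. RefSeq promoter sequences for GRCm38.p6 matched 62 of the 82 members with 74 entries. In each line, 10 bases lie before the annotated start, and capitals mark the unbroken run of C or T that begins on it.
Rpl14: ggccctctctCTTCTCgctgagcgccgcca
Rpl35: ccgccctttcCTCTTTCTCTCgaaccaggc
Rps6: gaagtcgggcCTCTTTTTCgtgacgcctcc
Rps18: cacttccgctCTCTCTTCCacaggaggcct
Rpl7a: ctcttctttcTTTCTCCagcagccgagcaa
Rpl39: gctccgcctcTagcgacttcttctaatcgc
Rps28: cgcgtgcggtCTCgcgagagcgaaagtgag
Rpl7l1: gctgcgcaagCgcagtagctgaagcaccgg
The windows lie at chr9:120571507-120571536 (plus strand) for Rpl14, chr2:39005112-39005141 (minus) for Rpl35, chr4:86857348-86857377 (minus) for Rps6 and chr17:33955646-33955675 (minus) for Rps18. They lie at chr2:26910797-26910826 (plus) for Rpl7a, chrX:37085203-37085232 (minus) for Rpl39, chr17:33824543-33824572 (minus) for Rps28 and chr17:46782637-46782666 (minus) for Rpl7l1. A C on the annotated start followed by 4 bases that are each C or T, read on the gene's own strand, was found for 13 members (21%) and for 813 of all 27025 genes with an entry (3.0%). Allowing the C to lie within 10 bases of the annotated start gave 39 members (62.9%) and 9297 genes (34.4%). A match is a description of the annotated letters, and the start actually used in these cells was not measured.

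The libraries held 7269103 to 9364551 counts each. The 10 macrophage markers summed to 17102 to 21219 CPM (counts scaled to a common library size with TMM) in cre_LP and 14086 to 17708 CPM in wt_LP, against 41.9 to 132 CPM in the epithelium. The 10 epithelial markers summed to 54.7 to 343 CPM in macrophages, against 13224 to 14646 CPM in cre_EC and 9846 to 13188 CPM in wt_EC. None of these 20 markers was at 0 in any group. Tsc2 stood at 32.7, 35.7 and 26.9 CPM in cre_LP8, cre_LP9 and cre_LP10, against 42.9, 38.1 and 25.6 CPM in wt_LP2, wt_LP4 and wt_LP6, and the groups overlapped. The macrophage difference was -0.14 on the log2 scale (SE 0.23, edgeR adjusted p = 0.860), turning to 0.31 with sex in the model and 0.32 in males alone, and the epithelial one 0.14 (SE 0.11, edgeR adjusted p = 0.414). Reads from exons that a deletion leaves in place are in these counts, which limits them as a check of genotype.

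Together the 82 genes took 1.90, 1.77 and 1.69% of the counts of cre_LP8, cre_LP9 and cre_LP10, against 2.20, 2.04 and 2.23% in wt_LP2, wt_LP4 and wt_LP6. They took 3.44, 2.99, 3.47 and 3.49% in cre_EC5, cre_EC8, cre_EC9 and cre_EC10, against 2.74, 2.91, 2.40 and 3.16% in wt_EC2, wt_EC4, wt_EC6 and wt_EC7. The macrophage genotypes did not overlap, the epithelial ones did through cre_EC8, and every macrophage library lay below every epithelial one. In bulk samples, fewer cells of a type and less RNA per cell cannot be told apart. The ribosomal RNA row took 25.5, 19.1 and 26.4% of counts in cre_LP against 19.5 to 20.6% in wt_LP. In the epithelium it took 7.37, 26.7, 8.52 and 10.6% in cre_EC, in the same order, against 18.5 to 31.8% in wt_EC. With the ribosomal RNA row and the mitochondrial rows left out of the total, the mean share was 2.60 ± 0.296% in cre_LP and 2.90 ± 0.108% in wt_LP (SD, n = 3 each). It was then 4.42 ± 0.259% in cre_EC and 4.58 ± 0.176% in wt_EC (SD, n = 4 each). The order of the epithelial means thus turned round, while their libraries overlapped (4.19 to 4.78% in cre_EC, 4.42 to 4.82% in wt_EC). The macrophage genotypes then overlapped, with 2.93, 2.36 and 2.51% in cre_LP8, cre_LP9 and cre_LP10 against 2.91, 2.79 and 3.01% in wt_LP2, wt_LP4 and wt_LP6, while the gap between the cell types remained.

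**Figure D1:**
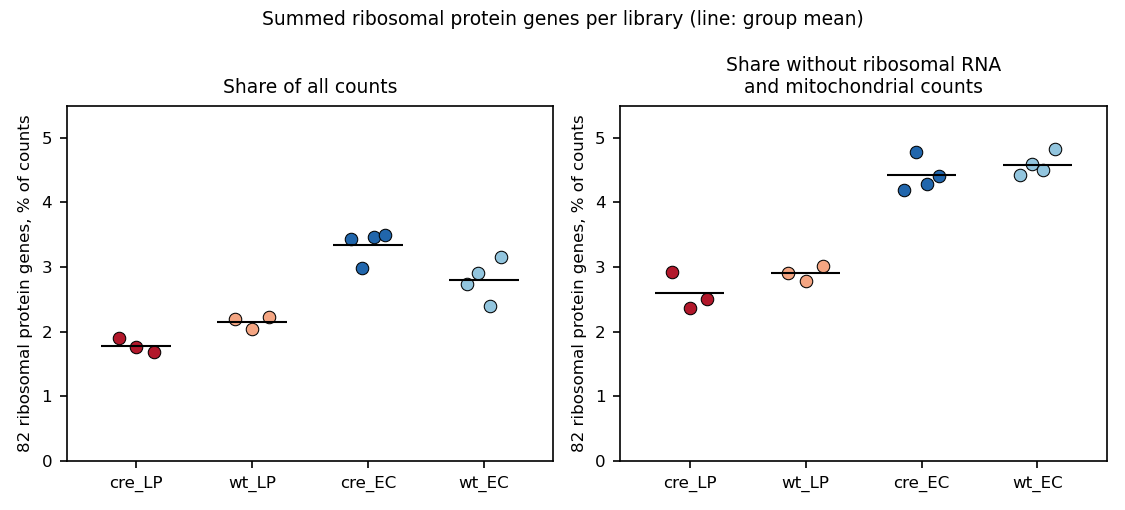
Summed share of the 82 ribosomal protein genes in each of 14 libraries, as a percentage of all counts (left) and of the counts left after removing ribosomal RNA and mitochondrial rows (right); points are libraries and lines are group means. Macrophage libraries lie between 1.69 and 2.23% on the left, below the epithelial ones. The means of the 2 epithelial genotypes swap order between the panels, and their libraries overlap in both.

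Levels can be compared between genes only per length, and the deposited FPKM were used for that. The highest means over 14 libraries belonged to Rplp1 (1012 FPKM), Rpl8 (916), Rpl10 (899), Rplp0 (875) and Rpl4 (759). Rplp0 and Rplp1 build, with Rplp2, the flexible stalk that recruits elongation factors. Rpl8 lies next to the catalytic centre, Rpl10 joins late in assembly, and Rpl4 lines the exit tunnel. Across libraries Rplp1 ranged from 816 to 1288 FPKM, Rpl8 from 596 to 1214, Rpl10 from 781 to 1248, Rplp0 from 573 to 1198 and Rpl4 from 472 to 1046, so these neighbours in the order overlapped. The 78 members with a mean of at least 1 FPKM spanned 72.8-fold, down to Rpl13a (13.9 FPKM), Rpl23a (17.8), Rpl7l1 (18.3), Rpl24 (20.1) and Rpl21 (21.5).

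Which member stood highest depended on cell type and genotype, within overlapping spreads. Rpl10 averaged 988 ± 151 FPKM in macrophages (SD, n = 6) and 832 ± 49.8 FPKM in epithelium (SD, n = 8). Rplp1 averaged 954 ± 170 FPKM in macrophages (SD, n = 6) and 1056 ± 71.1 FPKM in epithelium (SD, n = 8). In cre_LP Rplp1 (1004 FPKM) had a higher mean than Rpl10 (985), and in wt_LP Rpl10 (990) than Rplp1 (903). In cre_EC Rpl8 (1172 FPKM) had a higher mean than Rplp1 (1073), and in wt_EC Rplp1 (1038) than Rpl8 (936). Rplp2, the remaining stalk gene, stood at 144 ± 17.8 FPKM in macrophages and 134 ± 11.9 FPKM in epithelium (SD, n = 6 and 8). Rpl5 and Rpl11, which carry the smallest ribosomal RNA and bind the p53 regulator Mdm2, averaged 166 and 203 FPKM over all libraries. Rps6, the protein phosphorylated by the mTORC1-dependent S6 kinases, averaged 335 FPKM, and Rpsa, also known as a laminin receptor, 173 FPKM.

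Of the divergent copies that the rule also takes, 3 were expressed and 3 were near 0. Rps27l, a copy of Rps27 induced by p53, averaged 104 FPKM beside 320 for Rps27. Rpl22l1 averaged 34.1 FPKM beside 42.8 for Rpl22, and Rpl7l1, a homologue of Rpl7 with a role in assembly, 18.3 beside 450. Rpl3l, the striated muscle copy of Rpl3, averaged 0.591 FPKM beside 255 for Rpl3. The testis copies Rpl39l and Rpl10l were listed at 0.107 and 0.00567 FPKM, from 10 and 1 counts in all libraries together. Rps4l is annotated as a transcribed processed pseudogene in these files and is not a member.

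Rps10, a core protein of the small subunit, was listed at 0.115 FPKM, with 2, 2 and 0 counts in cre_LP and none in wt_LP, and 1 to 4 counts in each epithelial library. Of its transcript's 50-base words (stretches as long as a read), 56.8% also occur in transcripts of other genes, 50.8% in the readthrough gene RPS10-NUDT3, and 28.7% of its exon bases lie under other genes. Reads that fit 2 genes can be lost or split in counting, so a level this low cannot be told apart from lost reads. Among all 82 members the median share of such words was 50.0% and 41 members were above 50%. Rps27 shared 98.6% of its words with Rps27rt, and the rows held 22452 and 8949 counts. Of the 5 lowest members above 1 FPKM, Rpl13a, Rpl24 and Rpl23a have 35.4, 47.0 and 62.3% of their exon bases under other genes, among them Gm45713, Gm28037 and Tlcd1. The 13 members with under 20% of words shared had a median of 67.1 FPKM and the 21 with over 75% a median of 218, and over all 82 members Spearman's rho of level with shared words was 0.08. The levels thus showed no trend with shared sequence, while for a single gene it limits what the level means.

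**Figure D2:**
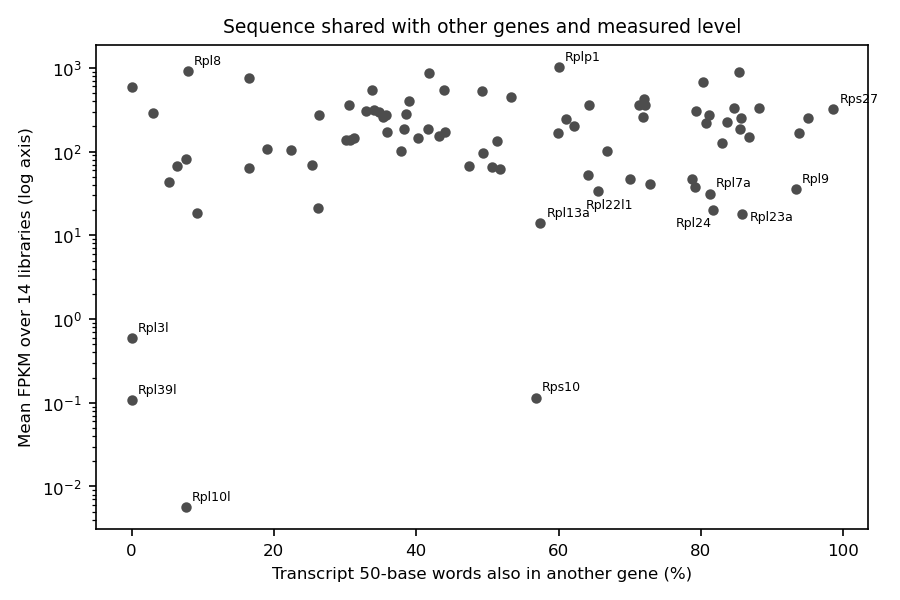
Each point is 1 of the 82 members, with the percentage of its transcript's 50-base words that also occur in another gene on the x axis and its mean FPKM over 14 libraries on the log y axis. The 4 members under 1 FPKM are Rpl3l, Rps10, Rpl39l and Rpl10l, and no trend runs across the rest.

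In macrophages no ribosomal protein gene passed the test between genotypes. With edgeR, 0 of the 79 members tested had an adjusted p under 0.05 in cre_LP over wt_LP, against 0.944% of the 14087 genes tested (0.731% higher and 0.213% lower), and 8 had an unadjusted p under 0.05, against 12.8% of all genes. DESeq2 called 1 member, the lower Rpl9. The changes were small and leaned one way. Their median log2 change was -0.09, against 0.00 for all genes, with 21 members above and 58 below 0, where 49.5% of all genes were below 0. The 95% interval lay within 1 log2 unit of 0 for 77 members, against 46.4% of all genes tested, and within 0.5 for 35.

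The smallest p belonged to Rpl9, Rps18, Rps23 and Rps6, and all had negative changes. Rpl9 is a large subunit protein near the base of the stalk. It stood at 85.8, 110 and 85.9 CPM in cre_LP8, cre_LP9 and cre_LP10, against 146, 133 and 164 CPM in wt_LP2, wt_LP4 and wt_LP6 (log2 change -0.64, SE 0.17, edgeR adjusted p = 0.137). The groups did not overlap, but 93.3% of its words occur in other genes. Rps18, in the head of the small subunit, stood at 70.8, 84.1 and 73.7 CPM in cre_LP, against 103, 104 and 126 CPM in wt_LP (log2 change -0.53, SE 0.16, edgeR adjusted p = 0.195). Rps23, which reaches into the decoding centre, stood at 67.4, 74.6 and 70.2 CPM in cre_LP, against 91.6, 101 and 110 CPM in wt_LP (log2 change -0.50, SE 0.15, edgeR adjusted p = 0.195). In both genes the groups were apart as well, but 86.7% of the words of Rps18 and 51.7% of those of Rps23 occur in other genes. Rps6 stood at 311, 295 and 308 CPM in cre_LP, against 404, 355 and 416 CPM in wt_LP (log2 change -0.35, SE 0.13, edgeR adjusted p = 0.315), again without overlap. Of the words of Rps6, 84.6% occur in other genes.

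Over all tested members, every cre_LP library lay below every wt_LP library for 18 and above for 1, Rpl3l. Among all genes tested 10.1% were lower and 9.71% higher in this way, 19.8% in all. By role, a chosen list held 9 members whose human counterparts are mutated in Diamond-Blackfan anaemia (a congenital failure of red cell production). The 8 of them that were tested all had negative changes, from -0.30 to -0.02, and 0 passed. The list may not be complete, and 58 of all 79 members tested were below 0. The stalk genes Rplp0, Rplp1, Rplp2 and Rpl12 divided, with 2 above and 2 below 0. Rpl3l had 22, 28 and 24 counts in cre_LP against 18, 5 and 15 in wt_LP (log2 change 1.18, SE 0.50, edgeR adjusted p = 0.372). The 49 large subunit members tested had a median of -0.09 and the 30 small subunit members -0.10.

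One library carried much of the spread. In cre_LP8, 72 of 79 members lay above the mean of their group, with a median deviation of 0.25 log2 units, against 11 in cre_LP9 and 10 in cre_LP10. The median SD of a member was 0.22 log2 units in cre_LP and 0.11 in wt_LP, while over all genes it was 0.28 and 0.30. Mitochondrial rows took 9.83% of the counts of cre_LP8 and 6.0 and 6.44% in the other cre_LP libraries. Without cre_LP8 the median change was -0.24, without cre_LP9 it was 0.01, without cre_LP10 -0.04, without wt_LP6 -0.06, and 0 members passed in each case. Markers of fibroblasts and smooth muscle summed to a median of 1597 CPM in cre_LP (at most 2417) and 4059 CPM in wt_LP (2790 to 4697), and dendritic cell markers to 567 to 714 CPM in cre_LP and 862 to 1831 CPM in wt_LP. Those of T cells summed to 2.86 to 2.91 CPM in cre_LP and 8.91 to 10.8 CPM in wt_LP, and those of eosinophils and mast cells to 21.3 to 37.6 CPM in cre_LP and 42.7 to 61.8 CPM in wt_LP. None of the 5 markers in each of these lists was at 0. Markers of B and plasma cells, at 1017 to 1700 CPM in cre_LP and 567 to 2672 CPM in wt_LP, overlapped between the genotypes. So did those of neutrophils, at 27.4 to 44.8 CPM in cre_LP and 29.1 to 63.7 CPM in wt_LP, some of them at 0. The part of these cells, and of sex, in the lower ribosomal protein values was not tested beyond the fit with sex, which gave a median of -0.17.

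**Figure D3:**
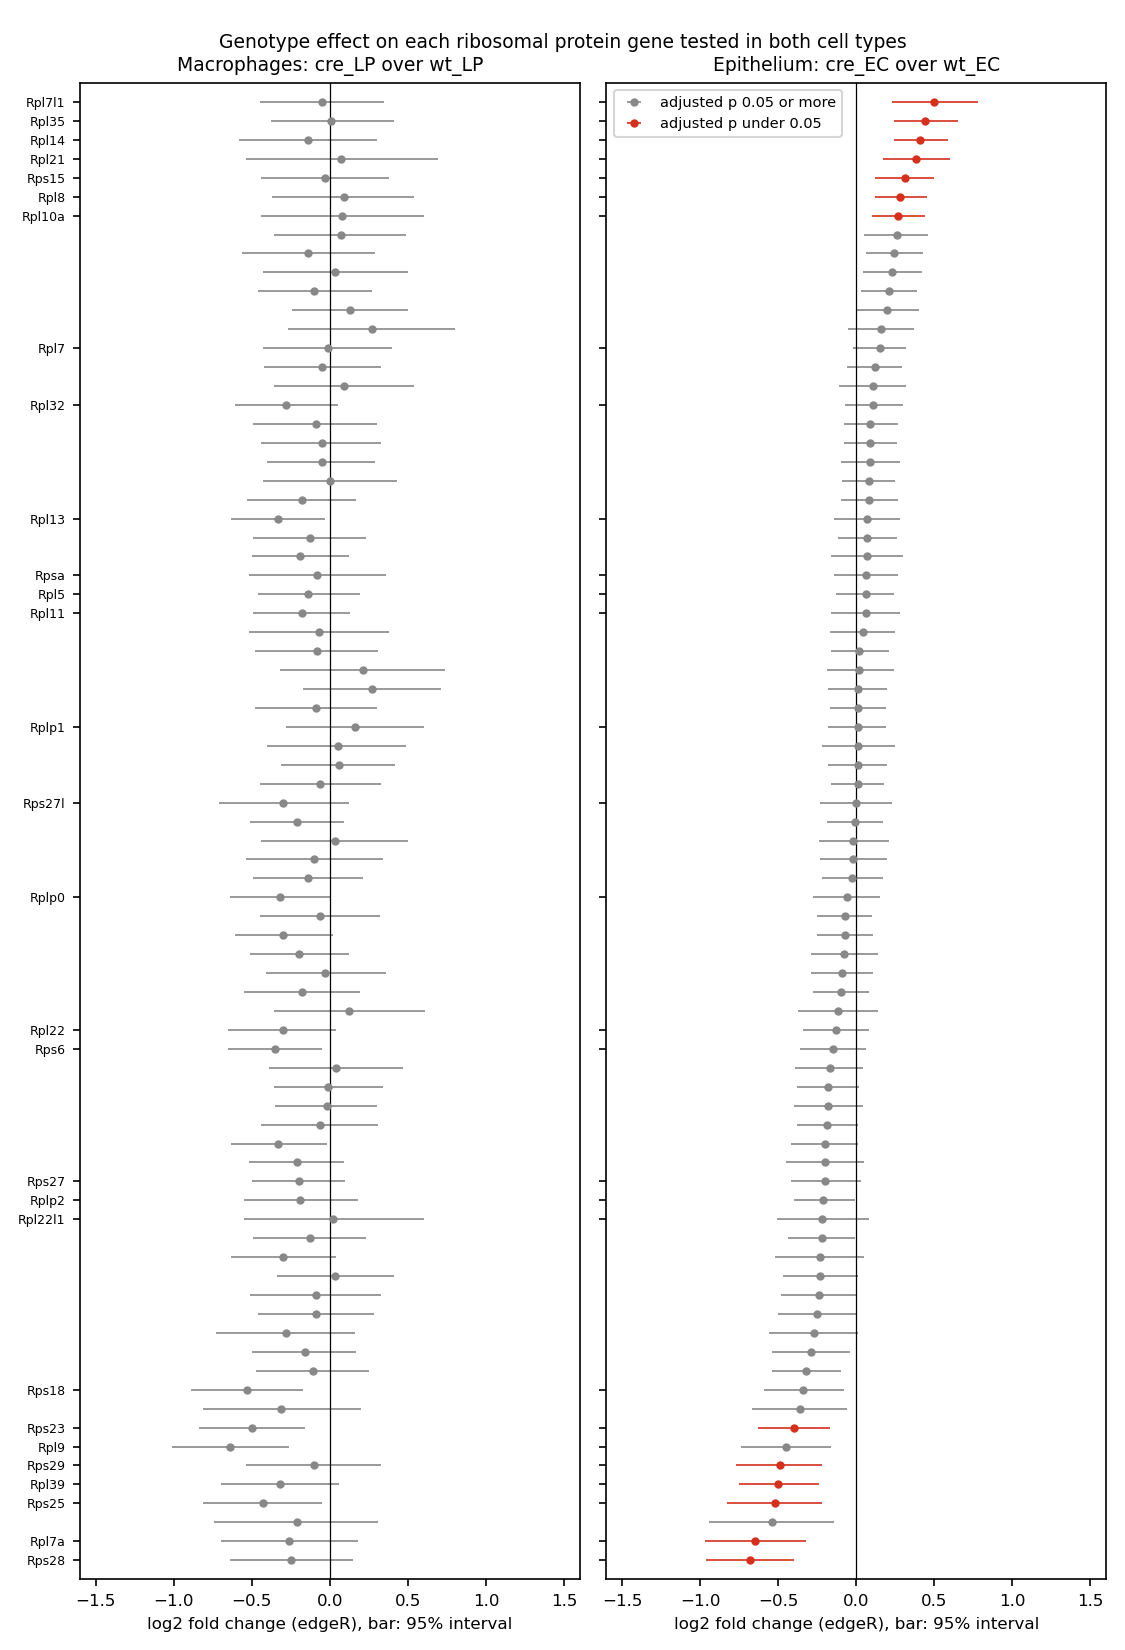
Log2 fold changes with 95% intervals for the ribosomal protein genes tested in both cell types, cre_LP over wt_LP on the left and cre_EC over wt_EC on the right, ordered by the epithelial change, with names for the 13 past the threshold there and for others described in the text. Macrophage values scatter below 0 with none past the threshold, and 13 epithelial values, 7 above 0 and 6 below, are marked red.

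In the epithelium 13 of the 78 members tested passed (16.7%), against 9.17% of the 13553 genes tested, 7 of them higher and 6 lower in cre_EC. The background was 5.64% higher and 3.53% lower. The median log2 change of the members was -0.01, against -0.05 for all genes, and the range ran from -0.68 to 0.50, so the changes pointed both ways around no common shift. All 78 intervals lay within 1 log2 unit of 0, against 72.2% of all genes tested, and 59 within 0.5. Every cre_EC library lay above every wt_EC library for 13 members and below for 11, against 10.6% and 6.31% of all genes tested (16.9% in all). The large subunit had 6 higher and 2 lower members, the small subunit 1 higher and 4 lower.

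In what follows, values stand in the order cre_EC5, cre_EC8, cre_EC9 and cre_EC10, then wt_EC2, wt_EC4, wt_EC6 and wt_EC7. Rpl7l1 rose, at 114, 78.7, 101 and 85.0 CPM in cre_EC against 75.9, 65.2, 58.1 and 65.7 CPM in wt_EC (log2 change 0.50, SE 0.13, edgeR adjusted p = 0.0277). Rpl35, at the mouth of the exit tunnel, rose, at 447, 376, 414 and 358 CPM in cre_EC against 320, 290, 285 and 269 CPM in wt_EC (log2 change 0.44, SE 0.10, edgeR adjusted p = 0.0138). Rpl14, a large subunit protein, rose, at 998, 869, 912 and 907 CPM in cre_EC against 733, 683, 656 and 673 CPM in wt_EC (log2 change 0.41, SE 0.08, edgeR adjusted p = 0.0109). The genotypes did not overlap in any of these genes. Rpl35 shares 95.1% of its words with other genes, chiefly Wdr38, whose own row held 4 counts in all libraries.

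Rpl21, another large subunit gene, rose, at 97.4, 87.6, 86.4 and 88.0 CPM in cre_EC against 66.7, 71.8, 62.1 and 72.5 CPM in wt_EC (log2 change 0.38, SE 0.10, edgeR adjusted p = 0.0302). Rps15, in the head of the small subunit, rose, at 471, 402, 432 and 392 CPM in cre_EC against 339, 332, 350 and 336 CPM in wt_EC (log2 change 0.31, SE 0.09, edgeR adjusted p = 0.0413). Rpl8 rose, at 1656, 1569, 1572 and 1581 CPM in cre_EC against 1314, 1300, 1255 and 1331 CPM in wt_EC (log2 change 0.28, SE 0.08, edgeR adjusted p = 0.0378). Again the genotypes stood apart. The last member past the threshold on this side was Rpl10a, of the stalk on the other flank of the large subunit, at 459 ± 16.3 CPM in cre_EC and 377 ± 11 CPM in wt_EC (SD, n = 4 each). Its adjusted p was 0.0494 in edgeR, and it was singled out after its values were seen.

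Among those that fell, Rps28, at the channel where messenger RNA leaves the small subunit, stood at 37.9, 31.8, 41.2 and 31.9 CPM in cre_EC against 47.9, 61.7, 57.5 and 60.2 CPM in wt_EC (log2 change -0.68, SE 0.13, edgeR adjusted p = 0.00978). Rpl7a, a large subunit protein, stood at 25.8, 29.3, 30.3 and 30.2 CPM in cre_EC against 33.7, 43.3, 45.7 and 56.7 CPM in wt_EC (log2 change -0.65, SE 0.15, edgeR adjusted p = 0.0197). Rpl39, which lines the exit tunnel, stood at 34.6, 42.4, 38.9 and 34.3 CPM in cre_EC against 48.1, 56.9, 52.0 and 53.1 CPM in wt_EC (log2 change -0.50, SE 0.12, edgeR adjusted p = 0.0208). All 4 cre_EC libraries were below all 4 wt_EC libraries in each. Rps23 fell too, at 57.1, 55.2, 54.9 and 56.2 CPM in cre_EC against 63.0, 75.4, 74.1 and 79.3 CPM in wt_EC (log2 change -0.40, SE 0.11, edgeR adjusted p = 0.0345). Rps25, needed for translation from some viral internal entry sites, stood at 45.5, 71.2, 53.2 and 51.2 CPM in cre_EC against 69.1, 74.3, 81.2 and 90.2 CPM in wt_EC (log2 change -0.52, SE 0.14, edgeR adjusted p = 0.0348). The zinc-binding Rps29 stood at 96.0 ± 16.4 CPM in cre_EC and 134 ± 14.2 CPM in wt_EC (SD, n = 4 each), a log2 change of -0.49 (SE 0.13, edgeR adjusted p = 0.0304). For Rps25 and Rps29, cre_EC8 reached into the range of wt_EC.

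**Figure D4:**
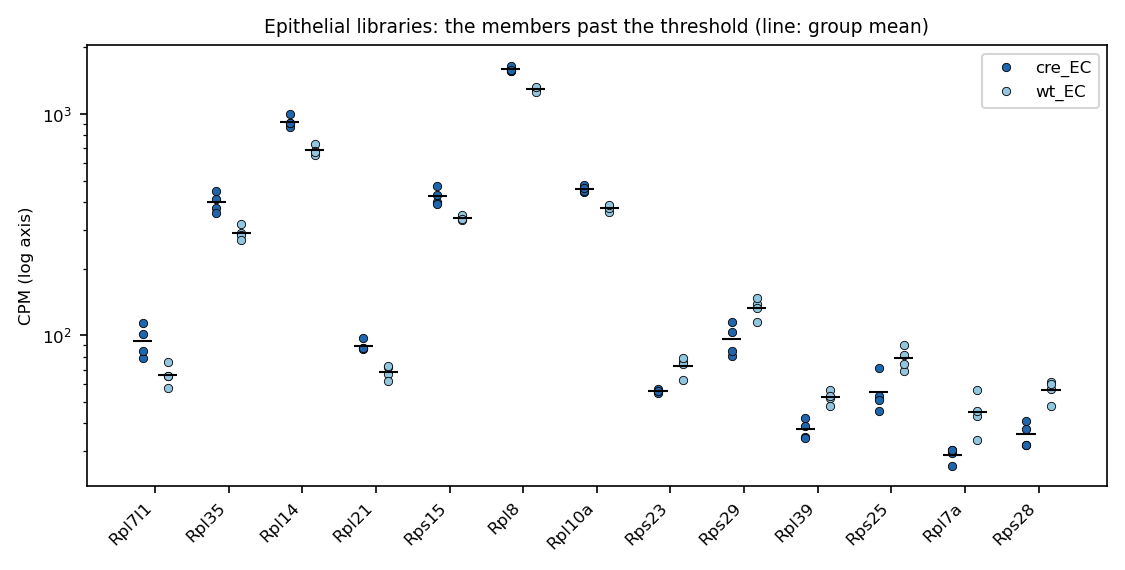
CPM (log axis) of the 13 members past the threshold in each epithelial library, cre_EC left of wt_EC, ordered by log2 change, with lines at the group means. The genotypes are separate for every gene except Rps29 and Rps25, and the genes that fell stand below 150 CPM.

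On GRCm38, Rpl14 (ENSMUSG00000025794) and Rps28 (ENSMUSG00000067288) span chr9:120571444-120574654 and chr17:33819027-33824562. Rpl35 (ENSMUSG00000062997) spans chr2:39001580-39005624, where Wdr38 and Arpc5l lie over 66.2% of its exon bases, and Rpl7a (ENSMUSG00000062647) chr2:26910764-26913318.

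The shown starts are set beside the changes as a description, and a link between them was not tested. Rpl14 and Rpl35 carry a C with a tract on the annotated start and rose. Rpl7a has a run of 7 bases that begins with a T, directly after a C, and fell. Rps28, with a run of 3, and Rpl39, with a single T, fell too, while Rpl7l1 has a single C and rose. The 12 tested members with a tract on the annotated start had a median log2 change of -0.03, and the 46 others with an entry -0.07. Those others include members with a tract within 10 bases of the annotated start, Rpl7a and Rpl39 among them. The medians thus do not separate genes with a tract from genes without. Transcript length moved with the change: Spearman's rho of log2 length with the epithelial change was 0.26 over the 78 members and -0.38 over all 13553 genes, a description across genes that share the same libraries. With the length trend removed in each library, 5 members were higher and 10 lower, with GC content and length both removed 2 higher and 11 lower, and with scaling on other coding genes 11 higher and 2 lower. That scaling moved the median of all genes to 0.07, a shift of the whole comparison, and the members' median to 0.10.

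The number of epithelial calls depended on which library was left out. Without cre_EC5 and without cre_EC9, 1 member was higher and 1 lower, without cre_EC10 2 and 1, without wt_EC4 2 and 2, without wt_EC7 4 and 3, without wt_EC2 3 and 7, and without wt_EC6 5 and 5. Without cre_EC8, the library high in ribosomal RNA, 7 were higher and 9 lower. Rpl14 and Rps28 passed without any one library in turn, Rpl35 did not without cre_EC5 or cre_EC9, Rpl7a not without these or cre_EC10, and Rpl39 not without these 3 or wt_EC4. Each of the other 8 failed without at least 5 of the 8 libraries. With ribosomal RNA share as a covariate 0 members passed, against 0.0221% of all genes, and in males alone 0 members against 0.0360%. In 1 fit over all 14 libraries 0 members passed, against 0.116% of all genes. Mitochondrial rows took 10.4 to 10.7% of counts in cre_EC and 11.6 to 18.1% in wt_EC, and the summed fibroblast and smooth muscle markers 1.76 to 2.86 CPM in cre_EC and 3.61 to 6.30 CPM in wt_EC. Their part in the epithelial changes was not tested.

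The difference of the genotype effects between the cell types passed for 0 of 79 members with edgeR, against 0.702% of 16375 genes tested (0.47% higher and 0.232% lower), and 5 had an unadjusted p under 0.05, against 15.3% of all genes. DESeq2 called 0 members as well. The members' median difference was -0.11, against 0.04 for all genes. Rpl14 had the smallest p (macrophage minus epithelial effect -0.58, SE 0.21, edgeR adjusted p = 0.206), followed by Rpl13 (-0.43, SE 0.17), Rpl32 (-0.42, SE 0.16) and Rpl7l1 (-0.58, SE 0.23), with adjusted p of 0.231 to 0.237. Rpl14 stood at 652, 389 and 457 CPM in cre_LP, with cre_LP8 the highest, against 607, 511 and 550 CPM in wt_LP, and these overlapped. Without cre_LP8 the difference for Rpl14 was -0.84, the only one of these that then passed, and the members' median was -0.28. The epithelial changes are thus not shown to be particular to the epithelium.

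Between the cell types hardly any ribosomal protein gene differed by 2-fold. At an adjusted p under 0.05 and at least 2-fold, 1 of 79 members passed in LP over EC, against 52.2% of the 16375 genes tested (29.7% higher and 22.5% lower). That member was Rpl3l, with 112 counts in the 6 macrophage libraries against 2 in the 8 epithelial ones. It was listed at a median of 1.45 FPKM in macrophages (0.384 to 1.99) and of 0 FPKM in epithelium (0 to 0.0508), without overlap (log2 difference 5.92, SE 0.58, edgeR adjusted p = 7.87e-08). Rpl3l passed the filter on low counts only through the macrophage libraries, where it is high, so its p is no separate support for the difference. Even its macrophage level was far below the 248 ± 35.8 FPKM of Rpl3 there (SD, n = 6).

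By adjusted p alone, a rule added after the values were seen, 49 members passed (62.0%), against 73.7% of all genes, and they leaned to lower values in macrophages. Of them 6 were higher (7.59%, against 39.4% of all genes) and 43 lower (54.4%, against 34.3%). The median log2 difference was -0.26, against 0.07 for all genes, and 77 intervals lay within 1 log2 unit of 0, against 29.6% of all genes. With scaling on other coding genes the members' median was -0.41 and that of all genes -0.08. With the length trend removed, members and all genes had the same median of -0.24.

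Some of the members furthest apart were chosen after their values were seen. Rpl18, on the large subunit, stood at a median of 53.9 FPKM in macrophages (44.5 to 59.5) and 84.2 FPKM in epithelium (72.8 to 91.0; log2 difference -0.78, SE 0.09, edgeR adjusted p = 4.16e-07). Rps2, at the messenger RNA entry, stood at a median of 273 FPKM in macrophages (237 to 308) and 425 FPKM in epithelium (358 to 496; log2 difference -0.78, SE 0.09, edgeR adjusted p = 6.17e-07). In both the cell types were separate. Rplp0 was lower as well, at 682 ± 92.3 FPKM in macrophages (SD, n = 6) and 1019 ± 98.8 FPKM in epithelium (SD, n = 8; log2 difference -0.70, SE 0.09, edgeR adjusted p = 1.98e-06), beside -0.26 for Rplp1 and -0.01 (adjusted p = 0.927) for Rplp2, its partners in the stalk.

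Higher in macrophages by adjusted p were Rpl3l, Rps29, Rps23, Rpl39, Rps9 and Rpl37a. Rps29 stood at a median of 353 FPKM in macrophages (270 to 432) and 224 FPKM in epithelium (158 to 288; log2 difference 0.55, SE 0.12, edgeR adjusted p = 0.000447). Rps23 stood at a median of 72.4 FPKM in macrophages (57.8 to 97.1) and 48.4 FPKM in epithelium (45.1 to 64.3; log2 difference 0.40, SE 0.08, edgeR adjusted p = 0.000339). Both overlapped between the cell types.

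Some expressed copies differed between the cell types in the direction of their parents. The log2 difference between cell types was -0.27 (SE 0.09) for Rpl22 and -0.56 (SE 0.13) for Rpl22l1, and -0.50 (SE 0.10) for Rpl7 and -0.31 (SE 0.11) for Rpl7l1. Rps27l differed by -0.41 (SE 0.11) and Rps27 by 0.02 (SE 0.08). Rpl5 differed by -0.55 (SE 0.08) and Rpl11, its partner on the same ribosomal RNA, by -0.11 (SE 0.08). Rpsa and Rps6 differed by -0.48 (SE 0.11) and -0.19 (SE 0.08). Of these, Rpl11 (adjusted p = 0.261) and Rps27 (adjusted p = 0.852) did not pass in edgeR, and the differences between partners were not tested.

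**Figure D5:**
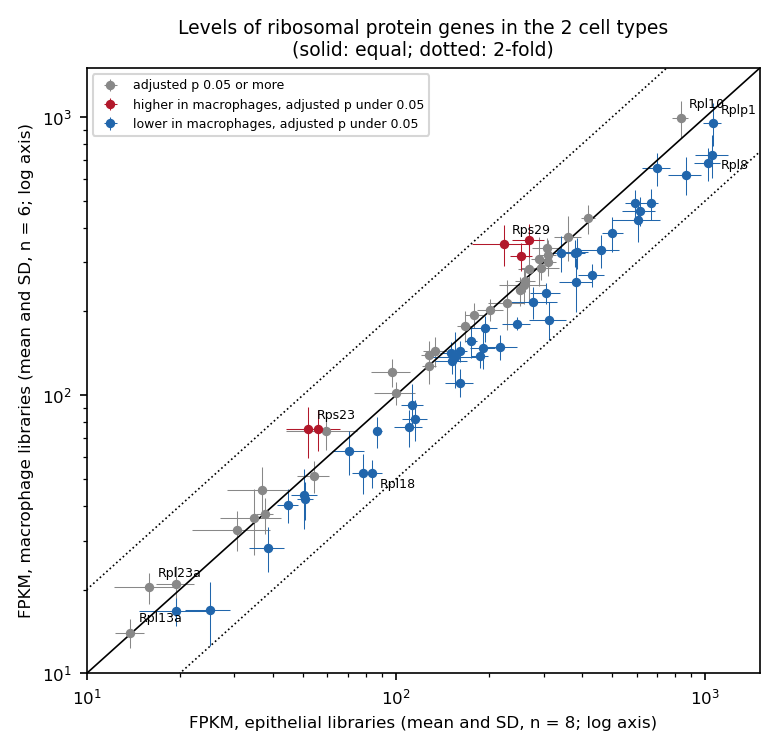
Mean FPKM of the 78 members with a mean of at least 1 FPKM, in 6 macrophage (y) and 8 epithelial libraries (x), on log axes with SD bars; the solid line marks equal levels and the dotted lines a 2-fold difference. Most points lie just below the solid line, all lie between the dotted ones, and the red points are higher in macrophages.

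Other genes of translation and ribosome supply gave a background for the members. Translation factors and other genes, listed for a pyrimidine tract that was not checked here, gave 0 of 22 in macrophages (all genes 0.944%). In epithelium 4 of 23 were higher (all genes 5.64%) and 5 lower (3.53%). Naca, a chaperone for new chains, rose in cre_EC (log2 change 0.44, SE 0.08, edgeR adjusted p = 0.00861), as did Eif3k, a subunit of an initiation factor (0.39, SE 0.09, adjusted p = 0.0182). Eif3a, the largest subunit of the same factor, fell (-0.75, SE 0.16, edgeR adjusted p = 0.0122), and so did Tpt1 (-0.45, SE 0.10, adjusted p = 0.0132). As for the members, both directions occurred.

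Of 45 ribosome assembly factors, 0 passed in macrophages (all genes 0.944%), and 5 were higher (all genes 5.64%) and 2 lower (3.53%) in cre_EC. Nhp2, of the particle that modifies ribosomal RNA, rose (0.69, SE 0.12, edgeR adjusted p = 0.00775), as did Eif6, which keeps new large subunits from joining early (0.57, SE 0.10, adjusted p = 0.00701). Heatr1 and Wdr43, of the small subunit processome, fell (-1.05, SE 0.26, edgeR adjusted p = 0.0231, and -0.53, SE 0.15, adjusted p = 0.0432). Heatr1 did not pass on leaving out cre_EC5, cre_EC9, cre_EC10, wt_EC2 or wt_EC4 (log2 changes from -1.11 to -0.88), and Wdr43 passed only without wt_EC6 among the 8 libraries. Of the translation factors above, Eif3k and Eif3a did not pass without cre_EC5 or cre_EC9, nor Tpt1 without cre_EC9. In LP over EC 1 assembly factor was at least 2-fold higher (Heatr1, 1.12; all genes 29.7%) and 6 lower (all genes 22.5%), among them Nhp2 (-1.46) and Eif6 (-1.17), whereas no ribosomal protein gene was 2-fold lower.

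Of the mTORC1 arm of translation control, 0 of 20 genes passed in macrophages (all genes 0.944%) and 1 of 21 in epithelium (all genes 9.17%). That gene was Rps6kb2, an S6 kinase, which rose (0.55, SE 0.15, edgeR adjusted p = 0.0349) but did not pass on leaving out cre_EC5, cre_EC9, cre_EC10, wt_EC2 or wt_EC4 (0.49 to 0.57). Between the cell types Rheb, the activator of mTORC1, was higher in macrophages (log2 difference 1.17, SE 0.09), as was Myc (1.20, SE 0.23). The translation inhibitors Pdcd4 (-1.68, SE 0.11) and Eif4ebp3 (-5.25, SE 0.46) were lower, each with an edgeR adjusted p under 0.05. At 2-fold, 2 of the 21 genes passed as higher in macrophages (all genes 29.7%) and 4 as lower (all genes 22.5%). The median difference of the list was 0.02, against 0.07 for all genes.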

How the data were processed

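Macrophages and epithelial cells were sorted from colon, and their polyadenylated RNA was copied by the unstranded Smart-seq2 method, per the labels' protocols. Nextera XT libraries gave single reads of 50 bases. GRCm38, DESeq2 1.24.0, Picard 2.19.2 and STAR 2.5.2b appear in the submitters' processing notes; counter and annotation are not given in the sources used. The authors deposited raw counts per gene and a table of FPKM, 14 columns each. Over 5680 genes, each deposited FPKM was the count over 1 number for the gene and 1 for the library (largest relative deviation 6.66e-16). Overlapping genes and copies cannot be told apart by strand.

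Group, replicate number and sex came from the labels. The titles carry 4 animal numbers per genotype, and the series description speaks of 4 cre mice and 3 controls, so whether 2 wt_EC libraries came from the same mouse is not known; if so, p-values are too small. Counts were tested across all genes with edgeR 4.0.16 in R 4.3.3 (TMM, filterByExpr at a minimum count of 10, robust quasi-likelihood F test, Benjamini-Hochberg adjusted p under 0.05, and an absolute log2 of 1 between cell types). Each cell type was fitted alone. The difference of effects and the cell type difference were fitted on 14 libraries. The filter kept 79 members in macrophages and over all libraries, and 78 in epithelium, where Rpl3l was not tested; Rps10, Rpl39l and Rpl10l were tested nowhere. SE is the log2 change over the square root of F.

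Shared 50-base words, overlaps and coordinates came from GENCODE M21, and promoter sequences from RefSeq. The 50-base words of a member's principal coding transcript were searched on both strands of all other genes' transcripts.

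Members, lists and tests were chosen with earlier results of these data known. A few members and list genes are not reported here by name. Named members were the 6 smallest p per direction past each threshold, or the 4 smallest where none passed; the 5 highest and 5 lowest by FPKM; copies, stalk genes, Rpsa, Rps6, Rpl5 and Rpl11; and 2 genes per direction of each other list. Alternatives were RLE factors, DESeq2 1.42.0, other filters, limma 3.58.1 on log2(FPKM + 1) or log2(FPKM + 0.1), sex or ribosomal RNA share as a covariate, males alone, scaling on other coding genes, length trend removal, a replicate block, 1 fit over all libraries and leaving out each library. Removing GC content and length together, and the 12 libraries with a matching number without the block, were added after seeing the data. The models were run on simulated counts with planted changes of at least 2-fold. Those runs do not show how well smaller changes are found.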

Additional observations from a re-analysis of the deposited data

Results flagged for a closer look

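In 76 groups of 4 libraries, 7 held a library apart from the other 3 by Dixon's test at 95%, where chance alone would flag about 1 in 20, or 3.8. The library cre_EC8 was low in the summed share of ribosomal protein genes (2.99% of counts, against 3.44 to 3.49% in the other cre_EC libraries) and high in the ribosomal RNA row (26.7%, against 7.37 to 10.6%). It was also apart for Rps27l (77.4 CPM). The library cre_EC5 was high for Rpl21 (97.4 CPM) and for Rpl8 (1656 CPM). Rpl3l was at 0 in every epithelial library except cre_EC9 (0.0877 CPM) and wt_EC4 (0.109 CPM), which is 1 count in each.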

How the results depend on the processing

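In macrophages, 1 member was lower with DESeq2 and 1 with 1 fit over all libraries; the median change was -0.23 with ribosomal RNA share as a covariate and -0.24 to 0.01 on leaving out 1 library. Tsc2 there was 0.31 with a sex term and 0.32 in males. In epithelium, members higher and lower were 0 and 0 with limma on log2(FPKM + 1) without a filter, in males, with ribosomal RNA share as a covariate and in 1 fit; 11 and 2 with scaling on other coding genes; 2 and 11 with GC and length trends removed; 4 higher at a minimum count of 50; and 10 lower with sex in the model or the length trend removed. Leaving out 1 library gave 1 to 7 higher and 1 to 9 lower. For the difference of effects, it gave 0 to 1 member lower and a median of -0.28 to -0.01. Between cell types at 2-fold, 2 members were higher without a filter and 0 at a minimum count of 50 or with limma on log2(FPKM + 1) or log2(FPKM + 0.1), where Rpl3l is filtered out; 1 was lower with the length trend removed and 2 with GC as well. By adjusted p alone, limma gave 10 higher with either pseudocount and 11 without a filter, and scaling on other coding genes 3. The median was -0.11 with limma without a filter and -0.41 with that scaling. Rplp2 turned to 0.03 at a minimum count of 50, 0.10 in limma with either pseudocount or no filter, 0.04 with the length and 0.09 with both trends removed, and ranged from -0.08 to 0.03 on leaving out 1 library. Rpl11 turned to 0.01 in the same limma fits and 0.04 with both trends removed. Rps27 turned to -0.13 with scaling on other coding genes, to -0.03 with the replicate block and on the same libraries without it, and ranged from -0.07 to 0.05 on leaving out 1 library. Mean member shares without ribosomal RNA and mitochondrial rows were 2.60% in cre_LP, 2.90% in wt_LP, 4.42% in cre_EC and 4.58% in wt_EC, and with pseudogene rows added 2.18, 2.62, 4.10 and 3.43% in the same order. Where no value above shows the cause, the cause was not tested.

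Libraries of the 2 cell types with the same number showed little common deviation (Pearson's r of -0.0316 to 0.0861 over 16375 genes). Each of the 3 wt_LP libraries nevertheless correlated best with the wt_EC library of its own number. Each cre_LP library, in contrast, correlated best with a cre_EC library of another number. For cre_LP8 r was 0.0323 with cre_EC9 and -0.0316 with cre_EC8. Low correlation between different cell types cannot tell whether 2 libraries came from the same mouse. With the replicate block, 0 members passed for the difference of effects and 1 between cell types, as without it; over all genes 7 and 8341 passed with the block and 10 and 8375 on the same 12 libraries without it. The macrophage tests rest on 3 libraries per group. In epithelium Rpl14 did not pass in 5 and Rps28 in 4 of 14 alternatives other than leaving out a library.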

Other observations

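Rows that share most words with a member gave values of their own in the epithelium. Rpl14-ps1, with 49.3% of the words of Rpl14, was higher in cre_EC (log2 change 0.38, edgeR adjusted p = 0.0173), as was Rpl10a-ps1, with 88.1% of those of Rpl10a (0.30, edgeR adjusted p = 0.0347). Rpl9-ps6, annotated as protein-coding, with 86.1% of the words of Rpl9, was lower (-0.67, edgeR adjusted p = 0.0234), while Rpl9 itself did not pass (-0.45, adjusted p = 0.0511). These rows were looked at after the values of the members were seen. Reads of each pair cannot be told apart over the shared words.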
